A study of Mus musculus with 4 samples.

Results

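The 37 genes described here encode proteins that sense DNA damage, signal it or repair it. They were chosen by symbol from a list of such genes, and all 37 were found among the 23283 gene symbols with a value in every library. Their RNA was measured in T helper 2 (Th2) cells, the CD4 T cells known for making IL-4, IL-5 and IL-13, grown from splenic CD4 T cells of C57BL/6 mice. The 4 groups were Menin knockout (KO) and wild type (WT) cells after 5 days, and KO and WT cells in a longer culture labelled as 3 weeks. Each group held 1 library. Menin, encoded by Men1, is a subunit of chromatin-regulating Trithorax group complexes, and the study asks how Th2 cells differ without it.

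All 4 groups began with 5 days in 15 ng/ml IL-2 and 10 ng/ml IL-4. Cells of the longer culture then rested for 2 days with no cytokine added and were restimulated for 5 days on immobilized anti-TCR, in IL-2 and anti-IL-4. In sum this is shorter than the labelled 3 weeks, and the remaining time was not given in the sources used here. The cultures therefore differ in restimulation and cytokines as well as in time. How Menin was deleted, the age of the mice and whether animals were pooled were also not given in the sources used here.

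DNA is damaged continuously, and most of all while it is copied in dividing cells. Damage is sensed by kinases and by proteins that gather on the chromatin beside a break. Breaks are then repaired by homologous recombination, which copies the sister chromatid and so works in S and G2 phase, or by end joining, which works throughout the cell cycle. The Fanconi anemia proteins remove crosslinks between the DNA strands, mismatch repair removes copying errors, and base excision repair removes damaged bases. Many recombination and checkpoint genes are known to be transcribed most in dividing cells, under E2F factors. In lymphocytes, end joining is also needed to rearrange the antigen receptor genes.

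Levels are in FPKM, which corrects the reads of a gene for its length and for the depth of the library. Inferred depth was 20.7 to 23.5 M reads per library. Men1 was at 10.3 FPKM in KO and 32.8 FPKM in WT after 5 days, and at 5.88 FPKM in KO and 25.4 FPKM in WT at 3 weeks, so it was lower in both libraries labelled KO. Of 9 compared Th2 markers 0 differed by at least 2-fold at 5 days, and at 3 weeks 6 were at least 2-fold lower and 0 higher in KO. The T cell genes Cd3e, Cd3d and Cd4 were the other 3, and Cd3e was then at 318 FPKM in KO and 206 FPKM in WT. Over all compared genes 0.82% were that much lower and 2.77% higher at 5 days, and 8.19% lower and 7.97% higher at 3 weeks. A further listed Th2 marker, Ptgdr2, fell short of a mean of 1 FPKM and was not compared. It went the other way at 3 weeks, at 1.43 FPKM in KO and 1.38e-10 FPKM in WT. The Th2 factor Gata3 was at 69.8 FPKM in KO and 72.8 FPKM in WT after 5 days, and at 45.9 FPKM in KO and 93.8 FPKM in WT at 3 weeks. The cytokine gene Il4 was at 9.71 FPKM in KO and 6.41 FPKM in WT after 5 days, and at 6.40 FPKM in KO and 21.9 FPKM in WT at 3 weeks. After 5 days Il5 and Il13 were at 0.971 to 3.68 FPKM in the KO and WT libraries. At 3 weeks Il5 was at 22.4 FPKM in KO and 95.1 FPKM in WT, and Il13 at 19.1 FPKM in KO and 105 FPKM in WT. In bulk RNA, fewer cells that express a gene and less RNA per cell cannot be told apart. Summed over 5 NK cell markers, the level was 6.75 FPKM in KO and 2.60 FPKM in WT after 5 days, and 15.7 FPKM in KO and 0.473 FPKM in WT at 3 weeks. Most of the KO 3-week sum was Klrd1 at 11.1 FPKM. There Klrk1 was at 2.57 FPKM, Klrb1c at 1.96 FPKM, Ncr1 at 0.110 FPKM and Klra8 at 0.0256 FPKM. Summed over 7 myeloid markers, the level was 5.39 FPKM in KO and 0.961 FPKM in WT after 5 days, and 15.8 FPKM in KO and 0.380 FPKM in WT at 3 weeks. Most of the KO 3-week sum was Itgax at 8.63 FPKM and Itgam at 4.75 FPKM. There Cd14 was at 2.03 FPKM, Adgre1 at 0.364 FPKM and Mpo at 0.0394 FPKM, and Lyz2 and Csf1r were listed at 0. The NK genes Klrk1 and Klrd1 and the myeloid genes Itgam and Itgax reached a mean of 1 FPKM over the 4 libraries. Each had its highest level in KO 3-week, so a higher KO level at 3 weeks is tied to that filter and was not tested. The 2 CD8 markers summed to 5.70 FPKM in KO and 4.38 FPKM in WT after 5 days, and to 3.77 FPKM in KO and 2.04 FPKM in WT at 3 weeks, most of it Cd8b1. The 5 B cell markers summed to 2.72 FPKM in KO and 1.62 FPKM in WT after 5 days, and to 0.278 FPKM in KO and 0.155 FPKM in WT at 3 weeks. Listed at 0 were the B cell gene Pax5 in all 4 libraries, the NK gene Ncr1 in both WT libraries, the myeloid gene Csf1r in both 3-week libraries and the CD8 gene Cd8a in WT at 3 weeks. The 37 repair genes together summed to 303 to 607 FPKM per library, and the part of the Th2 markers and of these other cell types in the results below was not tested.

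Differences are given on the scale log2((a + 1)/(b + 1)), with 1 FPKM added to each level, and a gene is counted as called where it differed at least 2-fold on that scale. All 37 genes had a mean level of at least 1 FPKM and were compared, among 10973 compared genes. With 1 library per group there is no replicate error and no test, and a call describes 2 libraries. The intervals given are exact Clopper-Pearson 95% intervals from inferred reads and cover counting error only.

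After 5 days the repair genes stood slightly lower in KO cells than in WT cells, and in the 3-week culture the gap was wider. Of the 37 genes, 30 had a lower level in KO at 5 days, with a median log2 ratio of -0.18, where 53.6% of all compared genes lay below 0 with a median of -0.02. At 3 weeks 34 of 37 were lower in KO (31 with upper-quartile scaling), with a median of -0.61, where 55.8% of all compared genes lay below 0 with a median of -0.08. At 5 days 0 of the 37 were called in either direction, where 0.82% of all compared genes were called lower and 2.77% higher. At 3 weeks 9 of the 37 were called lower and 0 higher, where 8.19% of all compared genes were called lower and 7.97% higher. Summed over the 37 genes, the level was 512 FPKM in KO and 607 FPKM in WT after 5 days, and 303 FPKM in KO and 542 FPKM in WT at 3 weeks. The KO sum was thus 84.4% of WT at 5 days and 55.9% of WT at 3 weeks.

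**Figure D1:**
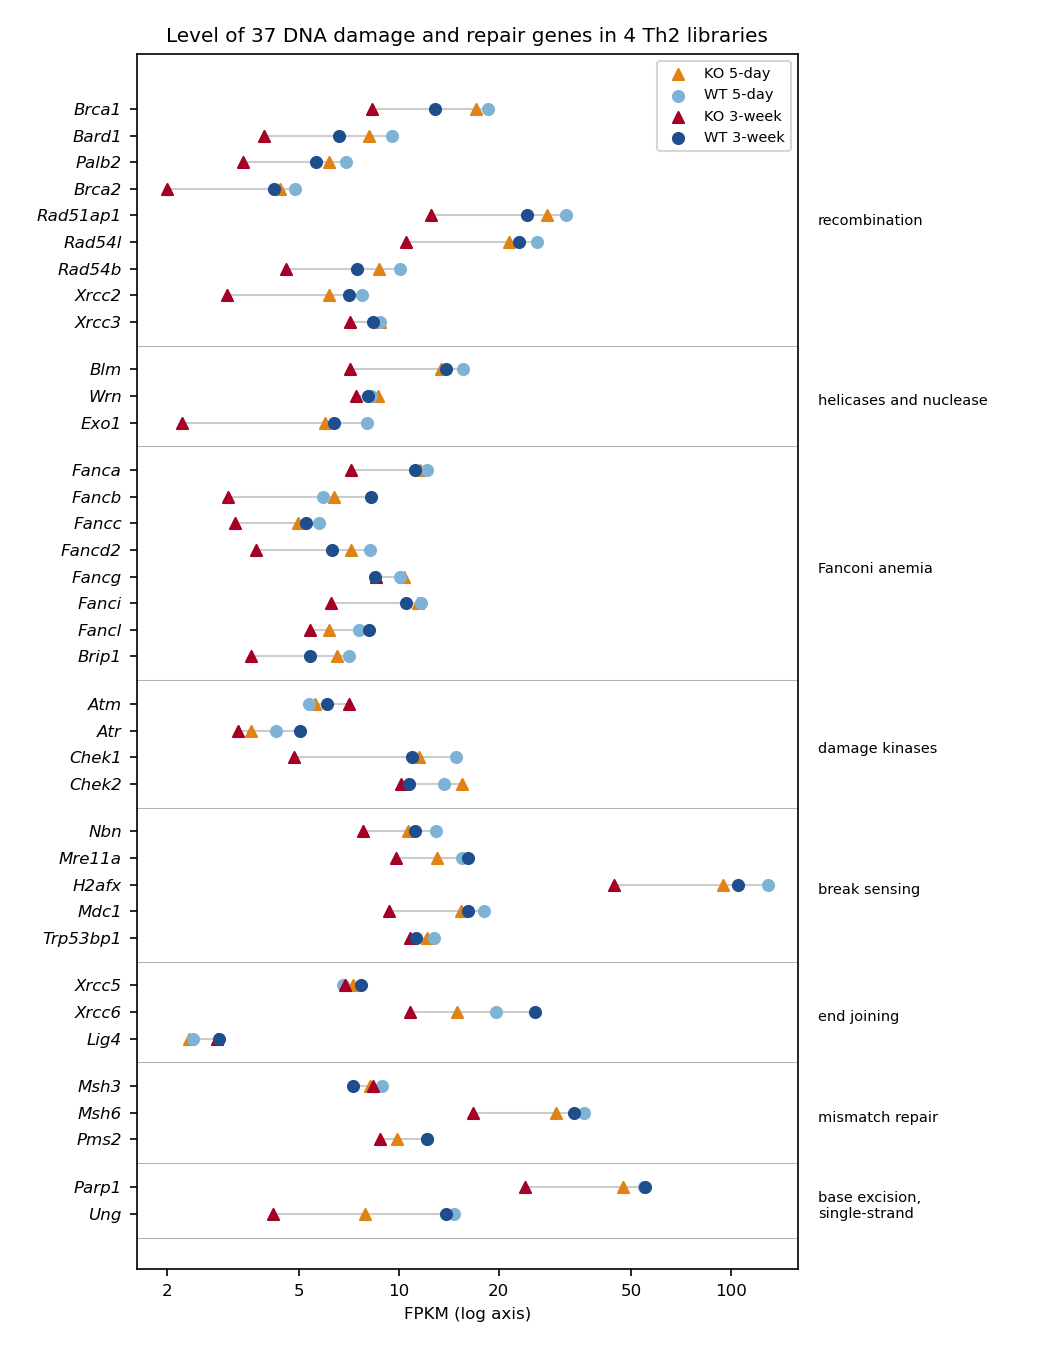
Level of each of the 37 genes in FPKM on a log axis, grouped by role, with KO libraries as triangles and WT libraries as circles. The KO 3-week library is the lowest of the 4 for 32 of the 37 genes, where it is for 42.9% of all compared genes. H2afx is the most abundant at 44.4 to 129 FPKM.

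The 9 genes called lower at 3 weeks came from 7 of the 8 role groups, all but mismatch repair. They were Ung, H2afx, Exo1, Fancb, Xrcc6, Parp1, Rad54l, Chek1 and Xrcc2. The gene nearest to the threshold on the inside was Xrcc2 at a log2 ratio of -1.0004, and the nearest on the outside were Msh6 at -0.96 and Rad51ap1 at -0.91. On the FPKM values themselves, without the added 1, Msh6 stood at 49.8% of WT and Brca2 at 47.4% of WT, so the threshold separates genes that lie close together. Which role groups held a call depended on the setting. With upper-quartile scaling no recombination or damage kinase gene was called. With a pseudocount of 0.1 FPKM the mismatch repair gene Msh6 was called lower.

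Promoters of 6 genes are shown so that genes called lower can be set beside genes that were not. They are picked examples and do not give the share of members with a match in the bases printed. Of genes not shown, the called Rad54l, Parp1 and Chek1 and the uncalled Fanca and Palb2 hold none in those bases. The uncalled Brca2 and Bard1, also not shown, hold a match. The sequences are the 250 bases before the RefSeq start in GRCm38.p6, 5′ to 3′ on the gene's strand, and capitals mark matches to an E2F-type string. Fancb and Xrcc6 were called lower and hold a match, Ung was called lower and holds none, Blm was lower but not called and holds a match, and Chek2 and Msh3 were not called and hold matches. The RefSeq starts of Xrcc6, Blm, Ung and Chek2 lie inside the spans that GENCODE gives for these genes, so some or all of their bases shown lie within the annotated gene.
Fancb, chrX:164980342-164980591, plus strand: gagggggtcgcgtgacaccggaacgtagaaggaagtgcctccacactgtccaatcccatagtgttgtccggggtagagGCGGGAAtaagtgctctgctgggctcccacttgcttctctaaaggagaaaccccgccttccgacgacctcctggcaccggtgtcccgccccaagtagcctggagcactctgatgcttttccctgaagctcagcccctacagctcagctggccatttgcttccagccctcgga
Xrcc6, chr15:82016119-82016368, plus strand: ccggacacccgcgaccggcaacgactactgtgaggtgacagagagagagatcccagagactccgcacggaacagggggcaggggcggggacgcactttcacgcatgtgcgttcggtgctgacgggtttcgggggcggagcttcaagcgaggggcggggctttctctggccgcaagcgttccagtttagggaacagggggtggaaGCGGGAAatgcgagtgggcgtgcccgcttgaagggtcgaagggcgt
Ung, chr5:114130185-114130434, plus strand: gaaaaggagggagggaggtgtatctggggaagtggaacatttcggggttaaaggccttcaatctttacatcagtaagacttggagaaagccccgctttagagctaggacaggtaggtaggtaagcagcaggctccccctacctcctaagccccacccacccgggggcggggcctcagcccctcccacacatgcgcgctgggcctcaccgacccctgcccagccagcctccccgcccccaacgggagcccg
Blm, chr7:80534999-80535248, minus strand: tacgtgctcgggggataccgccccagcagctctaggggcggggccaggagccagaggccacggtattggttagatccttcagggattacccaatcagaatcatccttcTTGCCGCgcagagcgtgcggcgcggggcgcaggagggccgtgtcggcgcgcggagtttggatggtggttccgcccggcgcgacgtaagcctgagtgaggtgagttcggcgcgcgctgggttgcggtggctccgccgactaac
Chek2, chr5:110839733-110839982, plus strand: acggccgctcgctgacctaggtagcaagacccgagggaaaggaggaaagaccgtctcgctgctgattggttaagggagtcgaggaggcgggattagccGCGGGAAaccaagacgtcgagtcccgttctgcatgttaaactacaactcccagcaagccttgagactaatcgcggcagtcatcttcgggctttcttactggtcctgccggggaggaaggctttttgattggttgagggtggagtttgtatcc
Msh3, chr13:92355004-92355253, minus strand: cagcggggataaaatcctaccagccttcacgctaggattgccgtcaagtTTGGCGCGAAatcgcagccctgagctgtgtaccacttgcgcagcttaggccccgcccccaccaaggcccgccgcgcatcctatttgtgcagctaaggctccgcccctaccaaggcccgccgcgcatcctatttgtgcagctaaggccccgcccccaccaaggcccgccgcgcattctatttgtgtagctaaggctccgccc

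The E2F-type string searched was TTCCCGC, in addition to the variant TTGGCGC, the variant TTCGCGC and also the variant TTGCCGC, on both strands from 250 bases before to 50 bases after each start. Of the 30 members with a promoter in the table, 18 held a match, or 60% of them, where 18.2% of 7771 promoters of compared genes and 9.69% of all 27018 promoters did. The share was 57.1% of 28 promoters of cell division genes and 34.5% of 84 promoters of other repair genes. In the Msh3 promoter shown, TTGGCGC and the reverse complement of TTCGCGC overlap in 1 run of capitals. A match was present in 3 of the 6 promoters of genes called lower at 3 weeks and in 15 of the 24 other member promoters. The NF-Y string CCAAT was found in 18 of 30 member promoters, where 39.7% of promoters of compared genes, 75% of cell division genes and 52.4% of other repair genes held it, and it can share bases with TTGGCGC. The cell cycle string TTTGAA or TTCGAA was found in 2 of 30, where 14.0% of promoters of compared genes and 32.1% of those of cell division genes held it. These matches describe letters in a window, not binding.

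The role groups hold 2 to 9 genes each, and counts of calls in them are to be read against the 8.19% of all compared genes called lower at 3 weeks. Homologous recombination genes were lower in KO at 3 weeks in all 9 cases. The 9 genes had a median log2 ratio of -0.18 at 5 days and -0.63 at 3 weeks, and 2 were called lower at 3 weeks, Rad54l and Xrcc2. Rad54l (chromosome 4, 116094264 to 116123690, GRCm38) encodes a motor protein that helps a broken strand invade the matching DNA. It was at 21.5 FPKM in KO against 25.99 FPKM in WT after 5 days, and at 10.5 FPKM in KO against 22.95 FPKM in WT at 3 weeks. The KO level was 82.7% of WT at 5 days (counting interval 76.5% to 89.3%) and 45.8% at 3 weeks (41.5% to 50.5%). Lrrc41 shares 15.4% of the exonic bases of Rad54l on the opposite strand, and the sources used here do not say whether strand was used in counting.

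Xrcc2 (chromosome 5, 25689812 to 25705825), a gene of the strand exchange step of recombination, was at 6.18 FPKM in KO and 7.74 FPKM in WT after 5 days. At 3 weeks it was at 3.03 FPKM in KO and 7.07 FPKM in WT, 42.9% of WT (36.2% to 50.6%). Its relative Xrcc3 differed less, with levels at 8.78 FPKM in KO and 8.75 FPKM in WT after 5 days, and at 7.11 FPKM in KO and 8.37 FPKM in WT at 3 weeks. For Xrcc3 the 3-week interval, 73.5% to 98.1% of WT, lies wholly above that of Xrcc2.

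Rad51ap1, whose protein promotes strand pairing, was the most abundant of the recombination group. It was at 27.9 FPKM in KO and 31.9 FPKM in WT after 5 days, and at 12.5 FPKM in KO and 24.3 FPKM in WT at 3 weeks. Brca2, whose protein prepares single-stranded DNA for strand exchange, was the least abundant of the group. It was at 4.39 FPKM in KO against 4.85 FPKM in WT after 5 days, and at 2.00 FPKM in KO against 4.21 FPKM in WT at 3 weeks. The log2 ratio of Brca2 at 3 weeks was -0.80 with the added 1 FPKM, although the levels themselves differed by more than 2-fold.

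Brca1 and Bard1 encode the partners of a ubiquitin ligase that acts at breaks, and they stayed in nearly the same proportion. Brca1 was at 17.1 FPKM in KO and 18.5 FPKM in WT after 5 days, and at 8.32 FPKM in KO and 12.9 FPKM in WT at 3 weeks. Bard1 was at 8.11 FPKM in KO and 9.53 FPKM in WT after 5 days, and at 3.92 FPKM in KO and 6.62 FPKM in WT at 3 weeks. The ratio of Brca1 to Bard1 levels was 2.11 in KO 5-day, 1.94 in WT 5-day, 2.12 in KO 3-week and 1.94 in WT 3-week. Such a ratio within a library does not depend on how libraries are scaled. Palb2, which links BRCA1 to BRCA2, was at 60.0% of WT in the 3-week culture, and Rad54b at 60.9%. Fsbp shares 35.8% of the exonic bases of Rad54b on the same strand, so the Rad54b level is uncertain.

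Among the helicases and the nuclease, Exo1 and Blm were lower in KO at both times, while Wrn was not. Exo1 (chromosome 1, 175880581 to 175913489) encodes an exonuclease that trims DNA ends for recombination and acts in mismatch repair. It was at 6.01 FPKM in KO against 8.0 FPKM in WT after 5 days, and at 2.23 FPKM in KO against 6.37 FPKM in WT at 3 weeks. The KO level was 75.1% of WT at 5 days (69.1% to 81.6%) and 35.0% at 3 weeks (31.0% to 39.4%). Blm, the Bloom syndrome helicase gene, was at 13.4 FPKM in KO and 15.6 FPKM in WT after 5 days, and at 7.14 FPKM in KO and 13.9 FPKM in WT at 3 weeks. Wrn, the Werner syndrome helicase gene, was at 8.67 FPKM in KO and 8.25 FPKM in WT after 5 days, and at 7.45 FPKM in KO and 8.08 FPKM in WT at 3 weeks. Both intervals of Wrn hold 100% of WT.

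Of the 8 Fanconi anemia genes, 6 were lower in KO at 5 days and 7 at 3 weeks, with medians of -0.08 and -0.57, and 1 was called lower at 3 weeks. Over all compared genes 53.6% lay below 0 at 5 days and 55.8% at 3 weeks, and 8.19% were called lower at 3 weeks, so 1 call in 8 genes is near the background. The called gene was Fancb (chromosome X, 164980592 to 164997272), part of the core complex that ubiquitylates FANCD2 and FANCI. Fancb was at 6.39 FPKM in KO and 5.91 FPKM in WT after 5 days, 108% of WT (91.9% to 128%). It was at 3.05 FPKM in KO and 8.24 FPKM in WT at 3 weeks, 37% of WT (30.4% to 44.7%). The genotypes thus lay close together at 5 days and far apart at 3 weeks, and the difference between the log2 ratios, -1.29, was the largest in size of the 37 genes.

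Fancd2 and Fanci, the pair that the core complex modifies, stood at like proportions of WT. Fancd2 was at 7.19 FPKM in KO against 8.17 FPKM in WT after 5 days, and at 3.71 FPKM in KO against 6.29 FPKM in WT at 3 weeks. Fanci was at 11.4 FPKM in KO and 11.7 FPKM in WT after 5 days, and at 6.25 FPKM in KO and 10.5 FPKM in WT at 3 weeks. At 3 weeks Fancd2 was at 59.0% of WT and Fanci at 59.5%. Fancg, a core complex gene, was at 10.3 FPKM in KO and 10.1 FPKM in WT after 5 days, and at 8.55 FPKM in KO and 8.48 FPKM in WT at 3 weeks, so the genotypes overlapped within counting error at both times.

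Fanca was the most abundant Fanconi gene in WT 5-day and Fancc the least. Fanca was at 11.6 FPKM in KO against 12.2 FPKM in WT after 5 days, and at 7.15 FPKM in KO against 11.2 FPKM in WT at 3 weeks. Fancc was at 4.98 FPKM in KO and 5.76 FPKM in WT after 5 days, and at 3.21 FPKM in KO and 5.24 FPKM in WT at 3 weeks. Brip1, the helicase gene also called FANCJ, was at 66.6% of WT at 3 weeks, and Fancl, the ubiquitin ligase of the core complex, at 66.2%. Genes on the opposite strand share 10.5% of the exonic bases of Fanca, 18.6% of Fancc, 16.0% of Fanci and 13.7% of Fancl.

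The 4 damage kinases did not share a direction. Atm encodes the kinase that responds to double-strand breaks, and Atr the kinase that responds to stalled replication. Atm was at 5.59 FPKM in KO and 5.37 FPKM in WT after 5 days, and at 7.08 FPKM in KO and 6.06 FPKM in WT at 3 weeks. At 117% of WT in the 3-week culture (counting interval 108% to 126%), Atm had the highest log2 ratio of the 37 genes, 0.19. Atr was at 3.58 FPKM in KO against 4.26 FPKM in WT after 5 days, and at 3.27 FPKM in KO against 5.04 FPKM in WT at 3 weeks. The ratio of Atr to Atm levels was 0.462 in KO 3-week and 0.831 in WT 3-week, and 0.641 in KO 5-day and 0.793 in WT 5-day.

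Chek1 (chromosome 9, 36708482 to 36727065) encodes the kinase downstream of ATR, which holds the cell cycle while replication is incomplete. It was at 11.5 FPKM in KO and 14.9 FPKM in WT after 5 days, and at 4.84 FPKM in KO and 10.96 FPKM in WT at 3 weeks. The KO level was 76.9% of WT at 5 days (70.02% to 84.4%) and 44.2% at 3 weeks (38.8% to 50.2%). Chek2, the kinase downstream of ATM, was at 15.5 FPKM in KO and 13.6 FPKM in WT after 5 days, and at 10.1 FPKM in KO and 10.7 FPKM in WT at 3 weeks. Chek2 had the highest log2 ratio at 5 days, 0.17, and was the 1 gene of the 37 whose 5-day interval lay above 100% of WT (101% to 127%). The ratio of Chek1 to Chek2 levels was 0.478 in KO 3-week and 1.02 in WT 3-week.

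**Figure D2:**
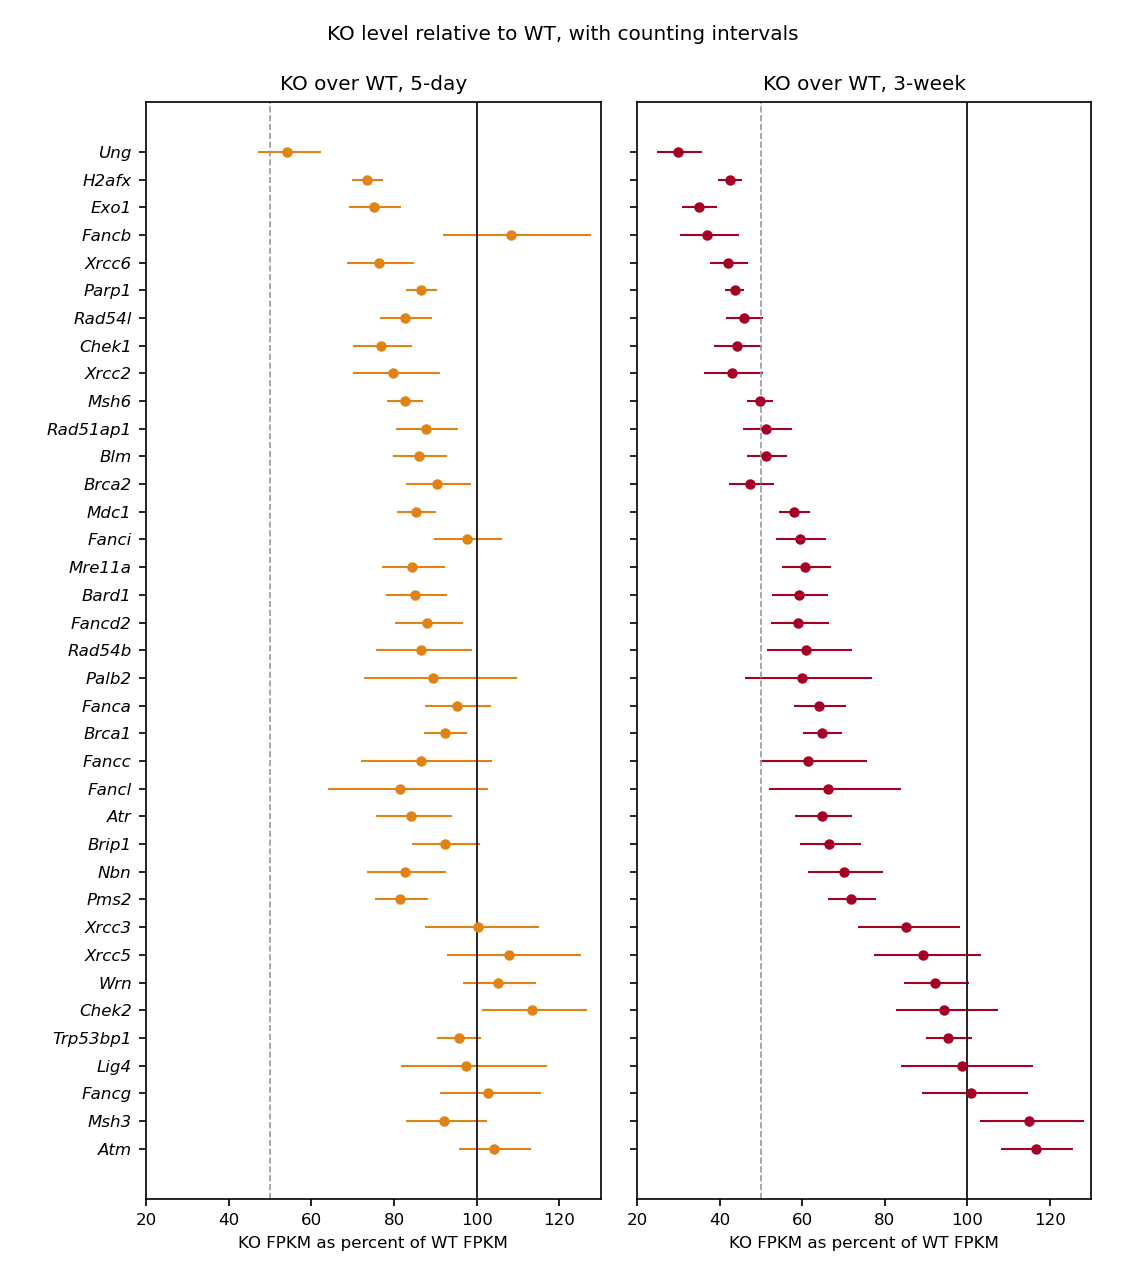
KO level as a percentage of the WT level for each gene after 5 days (left) and at 3 weeks (right), sorted by the 3-week log2 ratio, with exact 95% counting intervals. At 3 weeks 29 of 37 intervals lie below 100%, 2 lie above it (Atm and Msh3) and 6 hold it. The intervals cover counting error only. The like shares over all compared genes were not computed, so these counts have no background to be read against.

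Of the 5 genes that mark and read breaks on chromatin, all were lower in KO at both times, except that Trp53bp1 was not lower at 3 weeks with upper-quartile scaling. Their medians were -0.23 at 5 days and -0.67 at 3 weeks. H2afx (chromosome 9, 44334694 to 44336077) encodes the histone variant H2AX, which is phosphorylated beside breaks. It was the most abundant of the 37 genes, at 95.02 FPKM in KO against 129 FPKM in WT after 5 days, and at 44.4 FPKM in KO against 105 FPKM in WT at 3 weeks. The KO level was 73.5% of WT at 5 days (69.7% to 77.4%) and 42.4% at 3 weeks (39.6% to 45.5%). Mdc1, which encodes the reader of phosphorylated H2AX, was at 15.4 FPKM in KO and 18.0 FPKM in WT after 5 days, and at 9.35 FPKM in KO and 16.1 FPKM in WT at 3 weeks.

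Trp53bp1, whose protein directs breaks to end joining, was nearly level between the genotypes. It was at 12.2 FPKM in KO and 12.7 FPKM in WT after 5 days, and at 10.8 FPKM in KO and 11.3 FPKM in WT at 3 weeks, with both counting intervals holding 100%. Its 3-week log2 ratio of -0.06 was 0.04 with upper-quartile scaling. Mre11a and Nbn, subunits of the complex that binds broken ends, lay in between. Mre11a was at 60.7% of WT at 3 weeks (55.1% to 66.9%) and Nbn at 70.02% (61.5% to 79.6%). Genes on the opposite strand share 10.2% of the exonic bases of H2afx and 15.0% of those of Trp53bp1.

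In the end joining group 1 gene of 3 was called lower at 3 weeks. Xrcc5 and Xrcc6 encode Ku80 and Ku70, which form the ring that first binds a broken end. Xrcc6 (chromosome 15, 81987835 to 82040085) was at 15.0 FPKM in KO against 19.6 FPKM in WT after 5 days, and at 10.8 FPKM in KO against 25.7 FPKM in WT at 3 weeks. The KO level of Xrcc6 was 76.3% of WT at 5 days (68.7% to 84.8%) and 42.1% at 3 weeks (37.6% to 47.0%). Xrcc5 was at 7.29 FPKM in KO and 6.77 FPKM in WT after 5 days, and at 6.87 FPKM in KO and 7.69 FPKM in WT at 3 weeks. Both Xrcc5 intervals hold 100%, and the ratio of Xrcc6 to Xrcc5 levels was 1.58 in KO 3-week and 3.34 in WT 3-week. Desi1 shares 7.69% of the exonic bases of Xrcc6 on the opposite strand. Lig4, the ligase of end joining, was the least abundant of the 37 genes in WT 5-day, at 2.33 FPKM in KO and 2.39 FPKM in WT after 5 days, and at 2.83 FPKM in KO and 2.87 FPKM in WT at 3 weeks.

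The mismatch repair genes Msh3 and Msh6 stood on opposite sides of the WT level at 3 weeks. MSH6 recognises mainly single mismatches, and MSH3 mainly larger loops. Msh6 was at 29.8 FPKM in KO against 36.04 FPKM in WT after 5 days, and at 16.7 FPKM in KO against 33.6 FPKM in WT at 3 weeks. Msh3 was at 8.18 FPKM in KO and 8.88 FPKM in WT after 5 days, and at 8.34 FPKM in KO and 7.26 FPKM in WT at 3 weeks, 115% of WT (103% to 128%). The ratio of Msh6 to Msh3 levels was 2.01 in KO 3-week and 4.63 in WT 3-week, and 3.64 in KO 5-day and 4.06 in WT 5-day. Pms2, part of the nuclease complex that acts after mismatch recognition, was at 9.88 FPKM in KO and 12.1 FPKM in WT after 5 days, and at 8.74 FPKM in KO and 12.2 FPKM in WT at 3 weeks.

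Both genes of the base excision and single-strand break group were called lower at 3 weeks. Ung (chromosome 5, 114130386 to 114139323) encodes the glycosylase that removes uracil from DNA, and is known in B cells for its part in class switching. Ung had the lowest log2 ratio of the 37 genes at both times, -0.81 at 5 days and -1.53 at 3 weeks. It was at 7.91 FPKM in KO against 14.6 FPKM in WT after 5 days, and at 4.16 FPKM in KO against 13.9 FPKM in WT at 3 weeks. The KO level was 54.1% of WT at 5 days (47.0% to 62.2%) and 30.0% at 3 weeks (24.97% to 35.7%).

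Parp1 (chromosome 1, 180568924 to 180601254) encodes the enzyme that detects strand breaks and builds poly(ADP-ribose) chains. It was at 47.5 FPKM in KO and 54.9 FPKM in WT after 5 days, and at 24.0 FPKM in KO and 55.0 FPKM in WT at 3 weeks. The KO level was 86.6% of WT at 5 days (82.9% to 90.5%) and 43.6% at 3 weeks (41.3% to 46.0%). The WT level was thus nearly the same in both cultures, and the KO 3-week library stood apart from the other 3.

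The genotype ratios of the 2 cultures share no library. Over the 37 genes 29 were lower in KO at both times, where 42.8% of all compared genes were. Atm and Fancg, 2 of the 37, were higher at both. In 34 of 37 the log2 ratio was lower at 3 weeks than at 5 days, where 57.4% of all compared genes were. The median difference between the log2 ratios was -0.46, against -0.08 over all compared genes, and this difference could not be tested. It was -0.26 with a pseudocount of 5 FPKM and -0.38 with upper-quartile scaling. Across the 37 genes the 5-day and 3-week ratios had a Pearson r of 0.72 and a Spearman rho of 0.67, where r across all compared genes was 0.43. Genes are not independent replicates, and the 37 genes share 4 libraries. The genes lowest at 5 days, Ung, H2afx, Xrcc6, Exo1 and Chek1, were all among those called lower at 3 weeks.

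**Figure D3:**
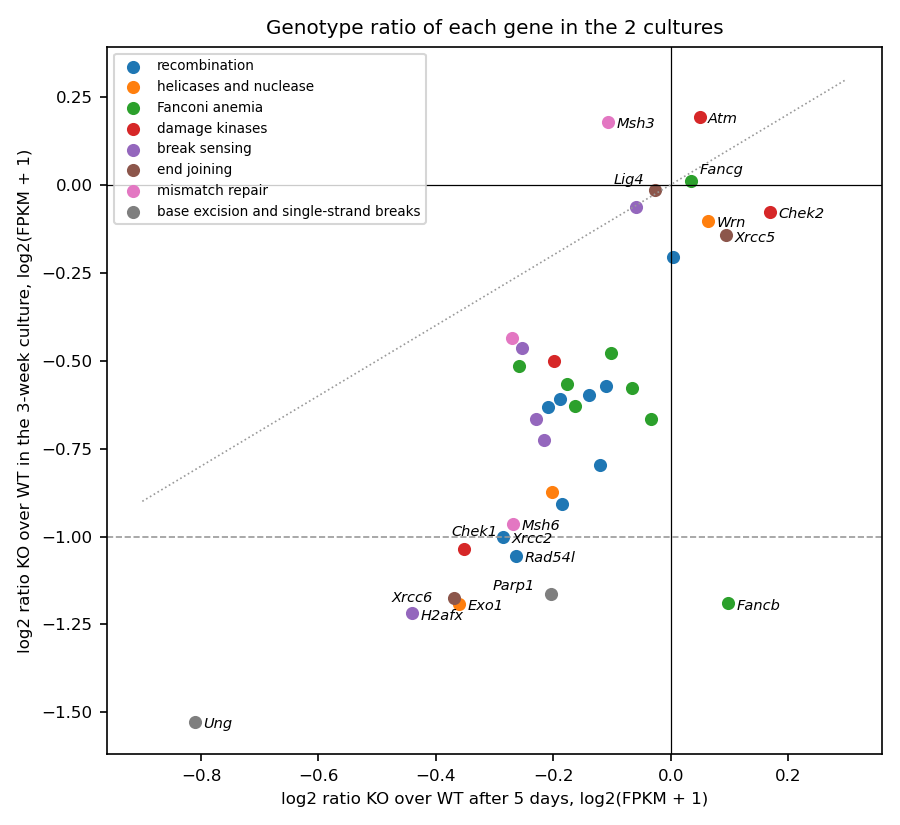
Log2 ratio of KO over WT after 5 days (x axis) and at 3 weeks (y axis), on the log2(FPKM + 1) scale, with 1 point per gene coloured by role. Points below the dotted line of equal ratios were lower at 3 weeks, points under the dashed line at -1 were called lower, and Fancb stands alone with a 5-day ratio of 0.10 and a 3-week ratio of -1.19.

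The longer culture was also set against the shorter one within each genotype. In WT cells 27 of 37 genes were lower at 3 weeks than at 5 days, with a median log2 ratio of -0.15. Over all compared genes 47.8% were lower in WT at 3 weeks, with a median of 0.01. Of the 37 genes 0 were called in either direction in WT, where 2.83% of all compared genes were called lower and 3.03% higher. In KO cells 34 of 37 were lower at 3 weeks, with a median of -0.71, and 4 were called lower and 0 higher, where 4.39% of all compared genes were called lower and 4.35% higher. The 4 were Exo1, at 37.1% of its 5-day KO level, Chek1 at 42.2%, Rad51ap1 at 44.7% and H2afx at 46.8%. In WT, Brca1 had the lowest ratio, 69.4% of its 5-day level, and Fancb the highest, 140%. All 3 end joining genes were higher in WT at 3 weeks than in WT at 5 days, with Xrcc6 at 131%, Lig4 at 120% and Xrcc5 at 114%, although the counting interval of Xrcc5 holds 100%. In KO cells Xrcc6 was at 72.3% and Xrcc5 at 94.1% of the 5-day level, while Lig4 was at 122%. These culture comparisons use the same libraries as the genotype comparisons.

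Other genes of DNA repair, taken from a list of 114 further genes of which 112 were found and 109 compared, were mostly lower in KO as well. At 5 days 84 of 109 were lower in KO, 0 were called in either direction and the median log2 ratio was -0.10. Over all compared genes 53.6% then lay below 0, and 0.82% were called lower and 2.77% higher. At 3 weeks 93 of 109 were lower, 10 were called lower and 0 higher, and the median was -0.45. Over all compared genes 55.8% lay below 0 at 3 weeks, and 7.97% were called higher. The 10 called lower are 9.17% of the list, near the 8.19% of all compared genes called lower. Apex1, the endonuclease gene of base excision repair, was at 7.21 FPKM in KO and 36.6 FPKM in WT at 3 weeks, and at 20.8 FPKM in KO and 29.5 FPKM in WT after 5 days. Cdc25a, the phosphatase target of CHK1, was at 6.19 FPKM in KO and 19.7 FPKM in WT at 3 weeks. The nuclease gene Dna2 was at 2.81 FPKM in KO and 9.47 FPKM in WT at 3 weeks. Also called lower were the DNA ligase gene Lig1, Rif1, Mgmt, Tipin, Rev1 and Recql4, with log2 ratios from -1.24 to -1.01. Of 18 nucleotide excision genes 13 were lower and 5 higher in KO at 3 weeks, with a median of -0.42. Of these 18, 0 were called in either direction, where 8.19% of all compared genes were called lower and 7.97% higher, and the highest was Xpc, a damage sensor gene, at 0.74.

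Genes of cell division were lower in the same libraries. Of 36 genes of DNA replication and mitosis, 34 were lower in KO at 5 days, with a median log2 ratio of -0.24 and 0 called. At 3 weeks 36 were lower, with a median of -0.92 and 13 called lower, 36.1% of the list. Over all compared genes 53.6% lay below 0 at 5 days and 55.8% at 3 weeks. At 5 days 0.82% of them were called lower and 2.77% higher, and at 3 weeks 8.19% lower and 7.97% higher. The proliferation marker Mki67 was at 175 FPKM in KO and 194 FPKM in WT after 5 days, and at 78.4 FPKM in KO and 152 FPKM in WT at 3 weeks. Pcna, the sliding clamp of replication, was at 142 FPKM in KO and 283 FPKM in WT at 3 weeks, and Rrm1, a subunit of the enzyme that makes deoxynucleotides, at 40.1 FPKM in KO and 106 FPKM in WT at 3 weeks. The helicase gene Mcm2 was at 43.1 FPKM in KO and 85.6 FPKM in WT at 3 weeks, and the kinase gene Cdk1 at 22.7 FPKM in KO and 41.98 FPKM in WT. The summed level of the 37 repair genes was 17.8% of that of the 36 division genes in KO 5-day and 18.3% in WT 5-day, and 22.6% in KO 3-week and 20.1% in WT 3-week. The part of cell division in the repair gene result was not tested.

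Targets of p53, the factor that responds to DNA damage, did not share this direction. Of 23 compared targets 11 were lower and 12 higher in KO at 3 weeks, with a median log2 ratio of 0.05, and at 5 days 13 were lower and 10 higher, with a median of -0.02. Cdkn1a, the CDK inhibitor gene induced by p53, was at 115 FPKM in KO against 107 FPKM in WT after 5 days, and at 127 FPKM in KO against 135 FPKM in WT at 3 weeks. Mdm2, which encodes the ligase that removes p53, was at 59.3 FPKM in KO and 44.5 FPKM in WT after 5 days, and at 107 FPKM in KO and 60.0 FPKM in WT at 3 weeks. Called at 3 weeks were Btg2, higher at 96.7 FPKM in KO and 20.9 FPKM in WT, and 3 genes that were lower, Zmat3, Aen and Plk2, where 7.97% of all compared genes were called higher and 8.19% lower. Aen was at 19.2 FPKM in KO and 46.5 FPKM in WT at 3 weeks.

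**Figure D4:**
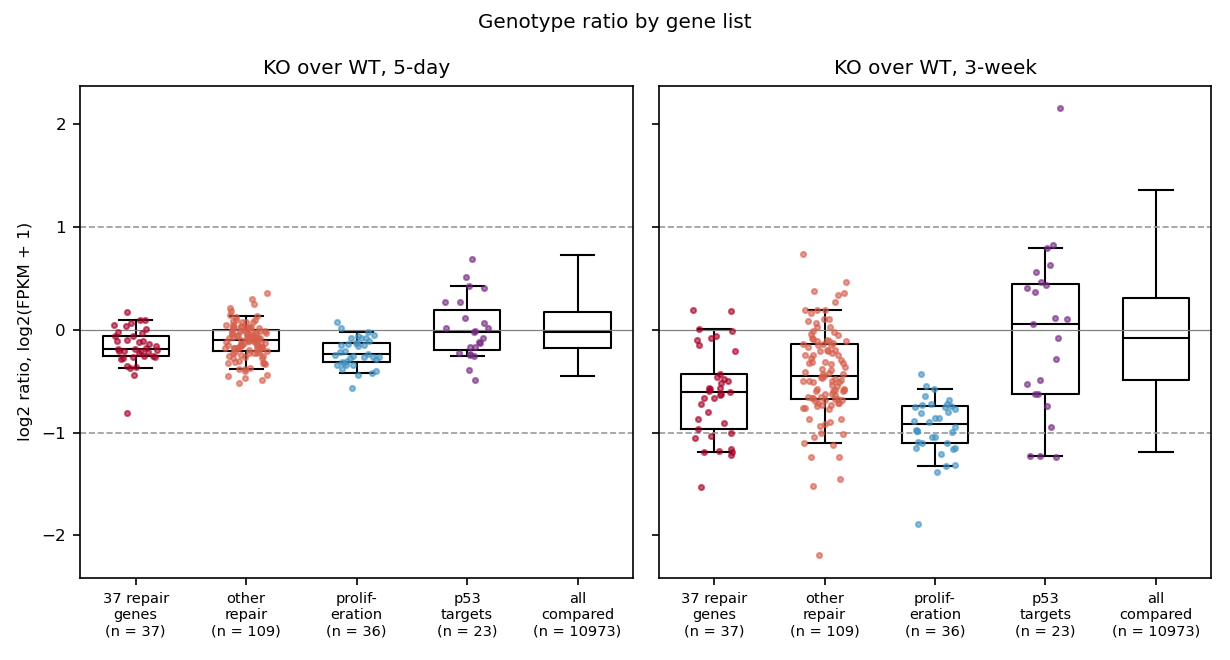
Log2 ratio of KO over WT after 5 days (left) and at 3 weeks (right) for the 37 genes, the other repair genes, the cell division genes, p53 targets and all compared genes. Points are genes (not drawn for all compared genes), boxes span the quartiles with the median as a line, whiskers run from the 5th to the 95th percentile, and dashed lines mark 2-fold; at 3 weeks the medians are -0.61, -0.45, -0.92, 0.05 and -0.08 from left to right.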

How the data were processed

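RNA was sequenced from 4 libraries of Th2 cells, 1 per group, prepared with a TruSeq kit for stranded mRNA per the labels' protocols. FPKM is the unit in which the authors deposited 1 value per gene symbol, as read from the values and from the tools named. Those were Bowtie 0.12.8, then TopHat 1.3.2 and Cufflinks 2.0.2, with the build mm10, per the submitters' processing notes. The annotation, the read layout, the strand setting and any filter were not given in the sources used here.

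A file had 23746 lines. FPKM of the 240 symbols on several lines were summed, none of them among the 37 genes, and 1 symbol with a non-numeric cell was left out. Genes with a mean of at least 1 FPKM over the 4 libraries were compared as log2((a + 1)/(b + 1)) and called at 2-fold, in 10973 genes. No test was possible, and no p-value is given.

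Depth was inferred from the whole-read steps of low values, using single-transcript genes of GENCODE M21 and lengths shortened by 200 bases. In the 4 libraries 59.2% to 61.6% of values under 5.5 reads lay within 0.05 of a whole number, against 10% for evenly spread values. The depth taken was the one tried that gave the highest such share, so the share is not a separate check of it. Reads of a gene used its shortest RefSeq-matched transcript, which widens the intervals, and ranged from 98 to 4756 for the 37 genes. Exon overlap used GENCODE M21 on GRCm38, and promoters used RefSeq on GRCm38.p6, matched by symbol and, where a gene had several, at its first entry.

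The 37 genes, the role groups and the lists were chosen with earlier results of these data known. Named genes were members called in any contrast, the 5 highest and 5 lowest in each genotype contrast and the most and least abundant of each role group; partner ratios and the remaining members were named after their values were seen. Other repair genes named were those called at 3 weeks, of which not all are reported here, and named targets of p53 were Cdkn1a, Mdm2 and those called. Alternatives were pseudocounts of 0.1 and 5 FPKM, filters of 0 and 5 FPKM, and median-of-ratios and upper-quartile scaling. The steps were tested on simulated counts. Python 3.11.15, pandas 2.3.3 and scipy 1.17.1 were used.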

Additional observations from a re-analysis of the deposited data

Results flagged for a closer look

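In 6 genes the KO level lay on opposite sides of the WT level in the 2 cultures, with 1 library per group, and the difference between the cultures was not tested. The log2 ratio at 3 weeks minus that at 5 days was -1.29 for Fancb, -0.25 for Chek2, -0.24 for Xrcc5, -0.21 for Xrcc3, -0.17 for Wrn and 0.28 for Msh3. For Fancb and Msh3 the counting intervals of the 2 cultures, of the KO level as a percentage of WT, did not overlap. They were 30.4% to 44.7% at 3 weeks and 91.9% to 128% after 5 days for Fancb, and 103% to 128% at 3 weeks and 82.8% to 102.5% after 5 days for Msh3. With upper-quartile scaling the 3-week ratio of Chek2 was 0.03, on the same side as at 5 days.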

How the results depend on the processing

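The pseudocount set the number of calls. With a pseudocount of 5 FPKM, 3 of the 37 genes (H2afx, Parp1 and Ung) were called lower in KO at 3 weeks, in place of 9, and 1 was called lower in KO cells at 3 weeks against 5 days, in place of 4. The medians of those contrasts were then -0.39 and -0.44. With a pseudocount of 0.1 FPKM the counts were 11 and 10. The share of all compared genes called lower in KO at 3 weeks moved as well, to 4.01% with a pseudocount of 5 FPKM, 10.4% with 0.1 FPKM, 7.35% with median-of-ratios scaling and 6.36% with upper-quartile scaling, against 8.19% as reported. Median-of-ratios scaling left 7 of the 9 called and upper-quartile scaling left 6, and upper-quartile scaling moved the median of all compared genes at 3 weeks from -0.08 to 0.01. The median of the 37 genes at 3 weeks minus that of all compared genes was -0.53 as reported and between -0.62 and -0.33 under the settings run. Of 296 single-gene genotype ratios under other settings, 4 had another sign, all at 3 weeks: Lig4 at 0.03 with median-of-ratios scaling and, with upper-quartile scaling, Lig4 at 0.07, Trp53bp1 at 0.04 and Chek2 at 0.03. The median difference between the 3-week and 5-day ratios ranged from -0.51 to -0.26, against -0.46 as reported. A mean of at least 5 FPKM left 33 of the 37 genes. No paired analysis was possible because each group held 1 library, for which reason no library could be left out either.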
